A study of Mus musculus with 2 samples.

Results

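A set of 702 windows of 50 kb had promoter contacts strongly skewed to the 129 allele in mouse embryonic stem (ES) cells of a hybrid line, out of 43941 windows on chromosomes 1 to 19. A window was taken when its interaction counts on both alleles summed to 200 or more, which 41383 windows did, and when (129 + 1)/(Cas + 1) was 2.74 or more. That threshold is 2 times the median ratio of all windows, 1.37. The windows were thus chosen by the counts themselves, and 1.70% of the counted windows passed. By the mirrored rule, a ratio of at most 0.5 times the median, 212 windows (0.512%) were skewed to Cas. Every count, ratio and distance below that compares the alleles describes windows chosen for that contrast, so no test is given.

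The cells were F121-6, a female hybrid line with a 129 and a Mus castaneus (Cas) chromosome set, grown with LIF and serum on inactivated mouse embryonic fibroblasts. Promoter Capture Hi-C was done on 2 samples of this line, replicates 1 and 2, and the analysed table holds a single pooled value per allele and window, so no spread between replicates can be given. The line and the cross are 1 each, so an allele's strain and the parent it came from cannot be told apart. Interaction counts summed to 50842396 on 129 and 37470557 on Cas. Intervals are exact Clopper-Pearson 95% intervals. Those of the 129 share of a window's count cover counting error only. Those of a share of windows or genes treat each window or gene as independent, which adjoining windows and genes of the same window are not. Contact counts do not show which cells are present, so the labelled cell type could not be checked by marker expression.

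In Promoter Capture Hi-C, crosslinked chromatin is cut with HindIII and religated inside the nucleus, and RNA baits then pull down the ligation products that hold a promoter fragment. A promoter meets nearby sequence far more often than distant sequence, and its contacts with enhancers mostly stay within the same topological domain. In a hybrid cell both alleles lie in 1 nucleus with the same proteins, and sequence differences between the strains let reads be given to one allele or the other. A window with a baited promoter collects many interactions, while a window without a bait is counted only as the partner of a bait elsewhere.

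Sequences of 3 of the microRNAs in windows skewed to 129 are shown first, because their windows had large ratios and no protein-coding gene. A microRNA pairs with its targets mainly through its seed, bases 2 to 8, which is given in capitals in the mature sequences (RefSeq, GRCm38.p6). The first pair, from the neighbouring genes Mir181a-1 (mature sequence at chr1:137966468-137966490, plus strand) and Mir181b-1 (at chr1:137966650-137966673, plus strand), shares its seed. The last one is from Mir759 (at chr14:79738460-79738481, plus strand).
mmu-miR-181a-5p: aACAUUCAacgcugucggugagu
mmu-miR-181b-5p: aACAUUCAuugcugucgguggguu
mmu-miR-759: gCAGAGUGcaaacaauuuugac
The window of Mir181a-1 and Mir181b-1 (chromosome 1, 137950001 to 138000000) had 3073 interactions on 129, against 294 on Cas. The 129 share was 91.3%, with an interval of 90.3 to 92.2%. miR-181 is known as a regulator of lymphocyte development. The window before it (137900001 to 137950000) was also skewed, with 1292 on 129 and 315 on Cas. The window of Mir759 (79700001 to 79750000) had 3329 interactions on 129, against 238 on Cas. Of the 847 annotated microRNA hairpins in counted windows, 13 (1.53%) lay in windows skewed to 129, close to the 1.70% of windows.

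Promoter sequences are given for 5 genes whose annotated start lies in a skewed window with no other listed start of a protein-coding gene. The window of Rcan1 also holds an end of Clic6, whose start is not in the promoter table. They run from 250 bases before the start to 50 after it (RefSeq, GRCm38.p6), 5′ to 3′ on the strand of the gene, with CG dinucleotides in capitals. CG content separates promoters of broadly used genes, often rich in CG, from those of tissue-restricted genes, often poor in it.
Slc39a12: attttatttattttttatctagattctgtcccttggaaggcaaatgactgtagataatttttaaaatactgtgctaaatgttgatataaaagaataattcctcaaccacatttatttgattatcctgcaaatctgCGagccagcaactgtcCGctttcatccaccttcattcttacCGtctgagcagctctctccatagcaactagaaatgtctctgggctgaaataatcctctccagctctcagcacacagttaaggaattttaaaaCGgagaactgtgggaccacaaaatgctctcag
Erich3: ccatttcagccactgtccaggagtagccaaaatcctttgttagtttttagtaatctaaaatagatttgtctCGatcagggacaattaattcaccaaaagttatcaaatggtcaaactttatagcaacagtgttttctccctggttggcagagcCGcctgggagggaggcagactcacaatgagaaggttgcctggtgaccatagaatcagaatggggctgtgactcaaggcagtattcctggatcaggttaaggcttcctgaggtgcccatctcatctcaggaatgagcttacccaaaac
Lrp11: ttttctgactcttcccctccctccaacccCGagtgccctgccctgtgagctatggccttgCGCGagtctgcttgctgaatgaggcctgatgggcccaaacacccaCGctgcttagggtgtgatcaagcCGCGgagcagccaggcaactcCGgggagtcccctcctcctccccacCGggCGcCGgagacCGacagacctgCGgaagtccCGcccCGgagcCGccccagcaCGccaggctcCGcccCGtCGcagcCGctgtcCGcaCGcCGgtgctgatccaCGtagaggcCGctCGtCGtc
Tcf21: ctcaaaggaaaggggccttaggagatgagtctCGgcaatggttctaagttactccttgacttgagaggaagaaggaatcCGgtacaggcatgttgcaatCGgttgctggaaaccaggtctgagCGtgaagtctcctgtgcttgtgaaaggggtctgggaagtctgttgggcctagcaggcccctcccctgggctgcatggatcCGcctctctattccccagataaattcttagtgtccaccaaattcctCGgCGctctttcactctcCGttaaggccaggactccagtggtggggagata
Rcan1: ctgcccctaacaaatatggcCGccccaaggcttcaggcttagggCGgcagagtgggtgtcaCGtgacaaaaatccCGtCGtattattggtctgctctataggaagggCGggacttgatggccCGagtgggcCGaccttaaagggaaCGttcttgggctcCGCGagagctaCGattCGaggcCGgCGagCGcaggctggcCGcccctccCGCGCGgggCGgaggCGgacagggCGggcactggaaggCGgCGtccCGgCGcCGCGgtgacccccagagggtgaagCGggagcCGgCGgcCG
Slc39a12 (chr2:14388148-14388447, plus strand), a zinc transporter gene, has 4 CG in these 300 bases. Erich3 (chr3:154710883-154711182, plus strand) has 2, and the start shown is an alternative one inside its annotated span. Lrp11 (chr10:7589567-7589866, plus strand) has 27. Tcf21 (chr10:22820094-22820393, minus strand), a transcription factor gene of mesodermal organs, has 8. Rcan1 (chr16:92466120-92466419, minus strand), an inhibitor of calcineurin, has 33. Of these 5, Slc39a12, Erich3 and Lrp11 lay in windows named for their large ratios, and their promoters were CG-poor in the first 2 and CG-rich in Lrp11. The windows of Tcf21 and Rcan1 were named for their high counts. Their ratios of 3.10 and 3.38 were near the median of the skewed windows, 3.30.

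Over all 313 annotated promoters of 267 protein-coding genes in the skewed windows, the median number of CG was 13 (quartiles 3 and 24) and the median GC content 57.7%. The 17395 promoters of counted windows had a median of 15 CG (quartiles 5 and 25) and the same median GC content, 57.7%. The HindIII recognition sequence AAGCTT, which reads the same on both strands, occurred in 15 of the 313 promoters (4.79%) and in 6.50% of all 17395. The promoter of Dld, described further on, is one of the 15. These letters describe 300 bases of each promoter only.

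The ratios ran up to 60.7, but most lay near the threshold. The median ratio of the 702 windows was 3.30 (quartiles 2.94 and 4.23), with 100 at 4 times the genome median or more and 22 at 8 times or more. On the log2 scale, relative to the median window, their ratios ran from 1.00 to 5.47 with a median of 1.27. Together they held 996590 interactions on 129, against 251586 on Cas, a 129 share of 79.8%, against 57.6% over the whole table. The lower end of the interval was itself past the threshold in 381 windows.

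**Figure D1:**
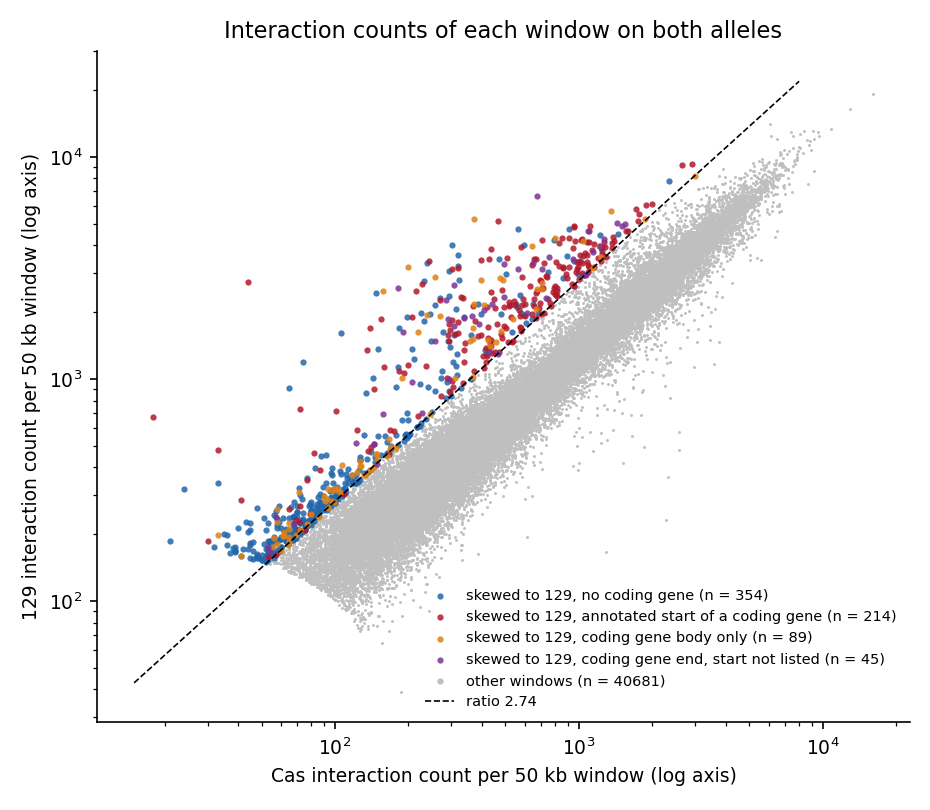
Interaction counts of each counted window on Cas (horizontal) and on 129 (vertical), both on log axes, with 1 point per window. Coloured points are the 702 windows skewed to 129, by what the annotation holds there, grey points the other counted windows, and the dashed line the ratio of 2.74; most skewed windows of low count lie close to the line, and those with 1000 or more interactions spread further from it.

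At the threshold the choice is arbitrary, as windows with 1000 or more interactions show. The last window inside, at Fgfr1, a fibroblast growth factor receptor gene, and Letm2, had 2945 interactions on 129, against 1074 on Cas. Muc4, a mucin gene, had 2631 on 129 and 959 on Cas. Elf3, an epithelial transcription factor gene, shared a window with Rnpep at 1461 on 129 and 532 on Cas, and Sar1b and Sec24a, both of the COPII vesicle coat, one at 3384 on 129 and 1232 on Cas. The first window outside, at Alg5 and Exosc8, had 2741 on 129 and 1001 on Cas, followed by those of Hip1r and Vps37b (2410 on 129 and 882 on Cas) and Cdh20 (2319 on 129 and 850 on Cas). Ratios ran from 2.74 to 2.75 inside and from 2.73 to 2.74 outside, so these windows do not differ beyond their counting intervals.

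The skewed windows fell into groups of low and of high count. A summed count of 200 to under 500 was found in 283 of them, 500 to under 1000 in 81 and 1000 or more in 338. As shares of all counted windows of the same count, these were 3.26% (2.90 to 3.66%), 0.726% (0.577 to 0.902%) and 1.57% (1.41 to 1.74%). The median ratio was 3.14 at 200 to under 500 and 3.83 at 1000 or more. Counting error weighs on the first group: the interval of the 129 share had a median width of 9.95 percentage points at 200 to under 500, against 2.81 at 1000 or more. Its lower end was past the threshold in 65 of 283 windows at 200 to under 500 and in 285 of 338 at 1000 or more.

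**Figure D2:**
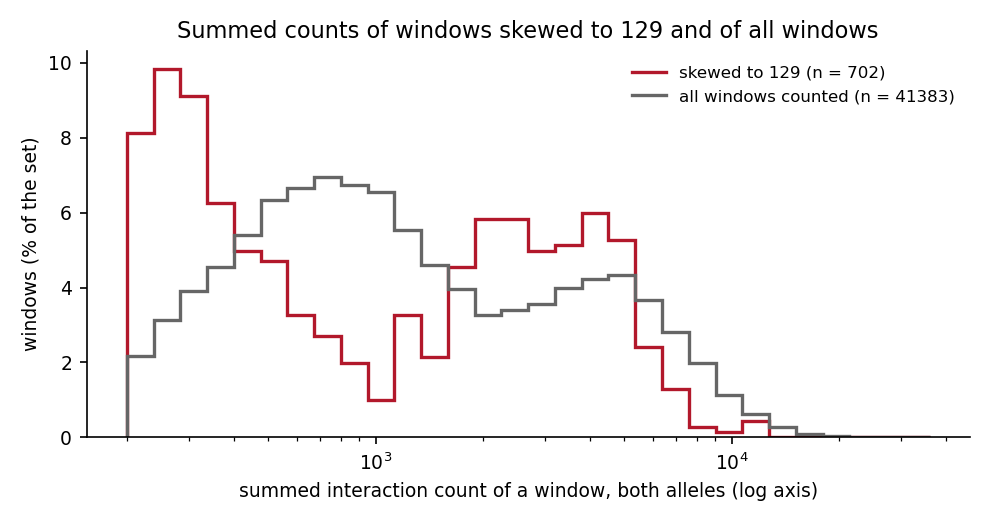
Summed interaction count per window (log axis) against the percentage of windows, as stepped histograms for the 702 windows skewed to 129 and for all 41383 counted windows. The skewed windows have a peak at the lowest counts and another above 2000 interactions, with a trough near 1000, where all counted windows are still frequent.

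The annotation of the skewed windows was read beside that of counted windows of like count. No protein-coding gene overlapped 354 of the 702 windows (50.4%), against 40.2% of counted windows. An annotated start of a protein-coding gene, alternative starts included, lay in 214 (30.5%), against 25.2%. A further 89 (12.7%, against 27.4%) held only part of a gene body, and in 45 a gene end lay whose start is not in the promoter table. Gene-free windows made up 230 of the 283 at 200 to under 500 interactions (81.3%), against 73.6% of counted windows of that count. Windows with a start made up 188 of the 338 at 1000 or more (55.6%), against 44.6%. Of the counted windows at 1000 or more, 1.96% of those with a start were skewed, 0.662% of those with only a gene body and 1.94% of those without a gene. At 500 to under 1000 these shares were 2.09%, 0.450% and 0.728%, and at 200 to under 500 they were 5.83%, 1.83% and 3.60%. Windows with only a gene body had the lowest share in every class, and those with a start the highest, by little at 1000 or more. Some of these intervals overlapped. At 200 to under 500 they were 3.23 to 9.59% with a start, from 14 skewed windows, and 3.16 to 4.09% without a gene. At 500 to under 1000 they were 0.267 to 0.710% with only a gene body and 0.532 to 0.973% without a gene. Among windows with a start, 174 of the 7425 with the listed start of 1 gene were skewed (2.34%, interval 2.01 to 2.71%) and 40 of the 3000 with those of 2 or more (1.33%, 0.954 to 1.81%).

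Gene-free windows of high count often held other annotated genes. Of the 79 skewed gene-free windows with 1000 or more interactions, 61 (77.2%) overlapped some annotated gene that does not code for protein, against 66.7% of all gene-free windows of that count. A long noncoding RNA was among them in 29 (36.7%, against 45.1%) and a pseudogene in 24 of the 79, against 899 of 4079. At 200 to under 500 interactions the share with any such gene was 27.4%, against 30.6%.

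The windows with the largest ratios at 1000 or more interactions stood out from their surroundings on one allele or on both. At Slc39a12 (chromosome 2, 14350001 to 14400000) there were 2732 interactions on 129, against 44 on Cas. Windows within 1 Mb that hold a start had medians of 2007 on 129 and 990 on Cas, and those without a start 382.5 on 129 and 216 on Cas. The 129 count of Slc39a12 thus lay above that of its neighbours with a start, and its Cas count below that of its neighbours without one. Lrp11, a gene of the low-density lipoprotein receptor family on chromosome 10 (7550001 to 7600000), had 1701 on 129 and 139 on Cas. Its neighbours with a start had 1610 on 129 and 1196 on Cas, and those without a start 523 on 129 and 304 on Cas. The window of the alternative start of Erich3 on chromosome 3 (154700001 to 154750000) had 3385 on 129 and 242 on Cas, with 3066.5 on 129 and 2179 on Cas in neighbours with a start and 355 on 129 and 179.5 on Cas in those without. At Lrp11 and Erich3 the 129 count was near that of other starts, and the Cas count nearer that of windows without a start.

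Windows inside long genes were set against neighbours without a start only. On that reference their 129 counts were in the range of the start windows above. On the log2 scale the 129 count lay 3.11 above such neighbours in Macrod2 and 2.00 above in Myo16. It lay 2.83 above at Slc39a12, 3.25 above at Erich3 and 1.70 above at Lrp11. A window in the body of Macrod2, a gene for an enzyme that removes ADP-ribose from proteins (chromosome 2, 141600001 to 141650000), had 3205 interactions on 129, against 199 on Cas, where neighbours without a start had medians of 370 on 129 and 251 on Cas. In Myo16, an unconventional myosin gene (chromosome 8, 10250001 to 10300000), a window had 2480 on 129 and 157 on Cas, with 619 on 129 and 435 on Cas around it. Both 129 counts were several times those of the neighbours. The Cas count was within 2-fold of the neighbours' in Macrod2 and further below it in Myo16.

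Other windows of this group, with the Mir759 window described above, held no protein-coding gene. That on chromosome 6 (43900001 to 43950000) had 2451 on 129, against 147 on Cas. On chromosome 18 (44200001 to 44250000) there were 1190 on 129 and 74 on Cas. The window on chromosome 8 (50550001 to 50600000) had 1614 on 129 and 106 on Cas, and that on chromosome 2 (170600001 to 170650000) had 4009 on 129 and 302 on Cas. Leaving Slc39a12 aside, the 129 shares of these windows lay between 92.4 and 94.3%, and the interval of each overlapped that of the next in order.

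Over all skewed windows, each allele was set against like windows within 1 Mb, those with a start against others with a start and those without against others without. Of 636 windows with 5 or more such neighbours, 335 had a Cas count of at most 0.5 times the neighbours' median without a 129 count of 2 times it or more. In 124 only the 129 count was at least 2 times the median, in 5 both held and in 172 neither. A low Cas count was found in 53.5% of them and in 10.0% of counted windows, and a high 129 count in 20.3% of them and in 12.2% of counted windows. These shares follow in part from the choice of windows by the same counts.

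In the median skewed window with a start, the 129 count was near that of neighbouring starts and the Cas count was low. These levels follow in part from the choice of windows by the same counts. On the log2 scale, the 129 count of the skewed windows lay 0.10 above that of neighbouring windows with a start (median of 195 windows), and the Cas count 1.45 below. Most of these, 173, had 1000 or more interactions, with a 129 count 0.14 above. In the 10 windows at 500 to under 1000 the 129 count was 1.74 below, and in the 12 at 200 to under 500 it was 2.93 below. Against neighbouring windows without a start, the 129 count of skewed windows was 1.86 higher, while it was 1.73 higher in all counted windows with a start. The Cas count was 0.33 higher in skewed windows, against 1.75 higher in all counted windows with a start. It was within 2-fold of the no-start neighbours in 121 of 204 skewed windows (59.3%), against 24.7% of the 9603 counted windows with a start. In median counts, these 204 windows had 2282 interactions on 129, against 574 on Cas.

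**Figure D3:**
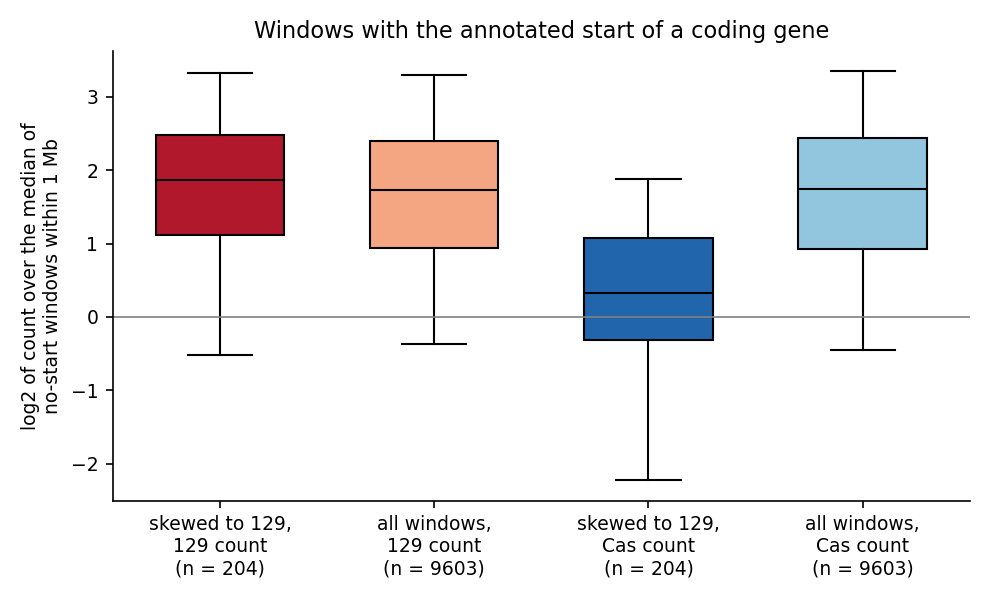
Counts of windows that hold the annotated start of a protein-coding gene, as log2 of the count over the median of the windows without a start within 1 Mb, for the 129 count (red) and the Cas count (blue). Boxes show medians and quartiles and whiskers the 5th and 95th percentiles; in the 204 skewed windows the median is 1.86 on 129 and 0.33 on Cas, and in all 9603 windows 1.73 on 129 and 1.75 on Cas.

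Windows without a start are given by count class. At 200 to under 500 interactions, the 129 count of 264 skewed windows was 0.23 below that of neighbours without a start on the log2 scale and the Cas count 1.24 below, and 189 of them (71.6%, against 17.4% of counted windows of that class) had a Cas count of at most 0.5 times the neighbours' median. At 1000 or more, the 129 count of 115 skewed windows was 2.12 above that of such neighbours and the Cas count 0.27 above. Of those, 100 (87.0%, against 35.1% of counted windows of that class) had a 129 count of at least 2 times the neighbours' median, and 2 had a Cas count of at most 0.5 times it. Median counts were 223 on 129 and 68.5 on Cas in the first set, and 1989 on 129 and 368 on Cas in the second. The classes are cut by the summed count, most of which is the 129 count in these windows, so the difference between the classes is no finding. In all counted windows without a start, the 129 and Cas counts were 0.41 and 0.44 below the neighbours' at 200 to under 500 interactions, and 0.61 and 0.62 above at 1000 or more.

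The skewed windows with the highest counts had smaller ratios and kept many Cas contacts. The highest was the window of Ms4a2, the beta subunit of the high-affinity IgE receptor, and Ms4a3 on chromosome 19 (11600001 to 11650000), with 9293 interactions on 129, against 2910 on Cas. A window with the starts of Cops9, Olfr12, Olfr1410 and Otos on chromosome 1 (92600001 to 92650000) had 9202 on 129 and 2636 on Cas. Fsd2 on chromosome 7 (81500001 to 81550000), a window that also holds Mir1839, had 8222 on 129 and 2986 on Cas. A gene-free window on chromosome 8 (95950001 to 96000000) had 7762 on 129 and 2352 on Cas.

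Pogk and Tada1, a subunit gene of the SAGA coactivator complex, shared a window on chromosome 1 (166350001 to 166400000) that had 6700 interactions on 129, against 671 on Cas. Its 129 share of 90.9% (90.2 to 91.5%) was the highest of these 10 windows, whose other shares lay between 73.4 and 77.7%. The other windows of high count kept more Cas contacts. Tcf21 on chromosome 10 (22800001 to 22850000) had 6147 on 129 and 1985 on Cas. Zkscan2, a zinc finger gene on chromosome 7 (123500001 to 123550000), had 6063 on 129 and 1888 on Cas. The window of Rcan1 on chromosome 16 (92450001 to 92500000) had 5814 on 129 and 1718 on Cas. Dld, which encodes the dihydrolipoamide dehydrogenase subunit of mitochondrial enzyme complexes, had 5559 on 129 and 1759 on Cas on chromosome 12 (31350001 to 31400000). Ptprk, a receptor phosphatase gene on chromosome 10, had 5273 on 129 and 1864 on Cas in a window of its body (28200001 to 28250000).

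Most skews ended at the edges of their window. Relative to the median window, the 1257 counted windows that adjoin a skewed one had a median log2 ratio of 0.21, with 71.5% of them above 0. Of these 1257, 72 were themselves skewed to 129, a larger share than the 1.70% of all counted windows. Only 1 was skewed to Cas, a smaller share than the 0.512% of all counted windows. The ratio was still at least 2 times the median of the windows within 1 Mb in 517 of 701 windows (73.8%). Over all counted windows it was so in 583 (1.41%), which include those 517. The median within 1 Mb was 0.10 for the skewed windows and 0.01 for all counted windows on the log2 scale. With surroundings so near the genome median, the share of 73.8% follows largely from the choice of windows. Around windows without a start at 200 to under 500 interactions, the median was 0.18 at 500 kb before the window and 0.15 at 500 kb after it. Around those at 1000 or more it was 0.10 before and 0.06 after, and around windows with a start 0.05 and -0.01.

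**Figure D4:**
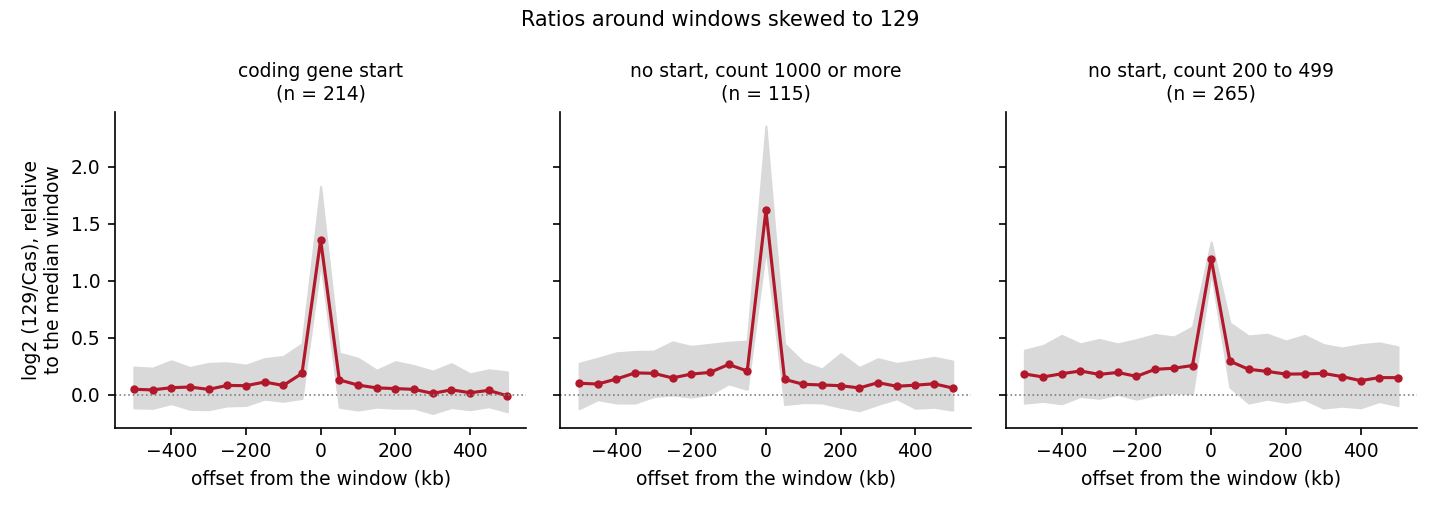
Median log2 ratio of 129 to Cas, relative to the median window, in windows up to 500 kb on either side of a skewed window, for 214 windows with a coding gene start, 115 without a start at 1000 or more interactions and 265 without a start at 200 to under 500. Points are medians and grey bands quartiles; the ratio drops to 0.30 or less within 1 window in each panel.

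Runs of adjoining skewed windows were short. Of the 702 windows, 630 stood alone, 66 formed 33 pairs and 6 formed 2 runs of 3, so 72 windows (10.3%) adjoined another. An interaction between adjoining windows can be counted in both. The longer runs were a stretch without a named protein-coding gene on chromosome 8 (50450001 to 50600000) and a stretch of Trdn on chromosome 10 (33250001 to 33400000). That on chromosome 8 had 204, 374 and 1614 interactions on 129, against 44, 133 and 106 on Cas. Trdn encodes triadin, a part of the calcium release complex of striated muscle. Its windows in the run had 180, 410 and 535 interactions on 129, against 58, 107 and 166 on Cas.

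Among the pairs, Aqp8, a water channel gene, and Zkscan2 lay in adjoining windows on chromosome 7 with 2955 and 6063 interactions on 129, against 1053 and 1888 on Cas. Accsl on chromosome 2 (93850001 to 93950000) had 4911 and 2618 on 129, against 1108 and 632 on Cas. The windows of Rcan1 and Clic6, an intracellular chloride channel gene, on chromosome 16 (92400001 to 92500000) had 473 and 5814 on 129, against 136 and 1718 on Cas. No protein-coding gene overlapped 24 of the 35 runs when genes with model or clone names were left out. The gene-free shares of single windows given above counted such genes, and no share by the same rule was computed, so no trait of runs can be read from this count. Of the 35 runs, 11 were on chromosome 10.

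Skewed windows recurred within 18 named genes, and no share over all genes with several counted windows was computed. In some, such as Accsl, the windows adjoin and may share interactions, and in long genes many windows could pass, as in Nkain2 with 2 of 25. Trdn had the most, 5 of its 9 counted windows, and all 9 were above the median window. Fn1, which encodes the matrix protein fibronectin, had 2 of 3, with 1632 interactions on 129, against 190 on Cas in the window from 71650001 on chromosome 1. That from 71550001 had 1089 on 129 and 183 on Cas. In the very long gene Csmd1 on chromosome 8, 3 of 34 windows were skewed to 129 while the median of all 34 was 0.02 on the log2 scale. Those 3 windows had 2160, 509 and 4618 interactions on 129, against 407, 144 and 1087 on Cas. Ntng1, a netrin-G gene of axon guidance on chromosome 3, had 2 of 8, with 696 and 4627 on 129, against 244 and 1104 on Cas. In Zfp949 on chromosome 9 both counted windows were skewed, with 2613 and 478 on 129, against 798 and 33 on Cas.

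Contacts of the skewed windows were shorter on 129 than on Cas in most cases. The distance given for each allele had a median of 288 kb on 129, against 578.5 kb on Cas, over the 702 windows. Over all counted windows the medians were 315 kb for 129 and 318 kb for Cas. Cas had the longer distance in 464 skewed windows (66.1%), against 49.4% of counted windows, and 129 in 233 skewed windows. At least a 2-fold longer distance on Cas was found in 218 (31.1%, against 8.11%) and on 129 in 68 (9.69%, against 7.68%). Of the 212 windows skewed to Cas, 31.6% had the longer distance on Cas, with medians of 603.75 kb on 129, against 455.25 kb on Cas. The way distances were summarised per window was not given in the sources used here.

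Such a difference in distance was found at 500 or more interactions. At 1000 or more interactions 274 of 338 skewed windows (81.1%) had the longer distance on Cas, with medians of 113.75 kb on 129, against 227.5 kb on Cas. At 500 to under 1000 it was 56 of 81 (69.1%), with medians of 526.5 kb on 129, against 932.5 kb on Cas. At 200 to under 500 it was longer on Cas in 134 of 283 (47.3%), with medians of 2571 kb on 129, against 2157.5 kb on Cas. Windows with a start had medians of 116 kb on 129, against 204 kb on Cas, with the longer one on Cas in 75.2%. By the size of the skew, the share with the longer distance on Cas was 62.8% under 4 times the genome median ratio, 84.6% at 4 to 8 times and 90.9% at 8 times or more. These groups were not split by count. The median ratio was 3.14 at 200 to under 500 interactions and 3.83 at 1000 or more, so a trend with the skew alone cannot be read from these shares.

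Single windows differed far more, among those where each allele had at least 100 interactions. Kcnj3, a potassium channel gene on chromosome 2 (55400001 to 55450000), had contacts at 14 kb on 129, against 2125.5 kb on Cas. Mcm4, of the helicase that licenses replication origins, and Prkdc, a DNA repair kinase gene, shared a window on chromosome 16 (15600001 to 15650000) with 17 kb on 129, against 1494.5 kb on Cas. Hpcal1, a calcium sensor gene on chromosome 12 (17650001 to 17700000), had 62 kb on 129, against 3618 kb on Cas. Windows without a protein-coding gene on chromosomes 13 (72450001 to 72500000), 8 (50550001 to 50600000) and 10 (46250001 to 46300000) did likewise. Their distances on 129 were 40, 132 and 117.5 kb, against 3375.5, 10905 and 9364.5 kb on Cas.

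In the 233 windows that went the other way, the allele with more contacts had the longer distance, and those with the largest such ratio at 100 or more interactions on both alleles are named here. Tenm4, a teneurin gene on chromosome 7 (96900001 to 96950000), had 99 kb on 129, against 22 kb on Cas. The window from 33050001 on chromosome 10, at one end of the annotated Trdn span, had 87.5 kb on 129, against 18 kb on Cas, with 3124 interactions on 129, against 706 on Cas. Gene-free windows on chromosomes 5 (70850001 to 70900000) and 1 (79100001 to 79150000) had 216 kb on 129, against 20 kb on Cas, and 3923 kb on 129, against 679 kb on Cas.

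Gene groups were read by the genes with an annotated start in a counted window, of which 267 of 14203 (1.88%) started in a window skewed to 129. None of 18 pluripotency factor genes did, nor any of 22 Hox genes, 30 imprinted genes, 55 ribosomal protein genes, 56 cytochrome P450 genes, 19 cadherin and protocadherin genes or 44 serpin genes. The intervals of these shares reached up to 18.5% for the pluripotency factors and 6.49% for the ribosomal protein genes. Median log2 ratios relative to the median window were -0.02 for the pluripotency factors, -0.15 for Hox genes, -0.05 for imprinted genes and -0.01 for ribosomal protein genes, against -0.04 for all genes.

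Olfactory receptor genes, which are expressed 1 at a time in sensory neurons, had 27 of 698 starts in skewed windows (3.87%, interval 2.56 to 5.58%). Several lie in the same window, so these genes are not separate cases. The window of Olfr350, Olfr351, Olfr352 and Olfr353 on chromosome 2 (36850001 to 36900000) had 4653 interactions on 129, against 1556 on Cas. That of Olfr746 and Olfr747 on chromosome 14 had 677 on 129 and 18 on Cas, the largest log2 ratio of the list at 4.70. Vomeronasal receptor genes, for pheromone detection, had 3 of 141 (2.13%). At Vmn2r60 on chromosome 7 (42100001 to 42150000) there were 715 on 129 and 101 on Cas, and at Vmn2r70 and Vmn2r72 246 on 129 and 79 on Cas, and 187 on 129 and 30 on Cas.

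Receptor genes of the natural killer complex had 3 of 43, Klrc1 and Klrc2 in 1 window on chromosome 6 with 466 interactions on 129, against 82 on Cas, and Clec2g with 390 on 129 and 87 on Cas. A list made up mostly of neural adhesion and synapse genes had 3 of 37 by their starts. Tenm3 on chromosome 8 had 3627 on 129 and 1007 on Cas, the neuregulin gene Nrg3 on chromosome 14 had 3251 on 129 and 1092 on Cas, and Immp2l on chromosome 12 had 1901 on 129 and 207 on Cas. Immp2l encodes a peptidase of the mitochondrial inner membrane and is not a neural adhesion gene. By gene bodies, which are long, 15 of 53 genes of this list overlapped a skewed window, Immp2l and Macrod2 among them, against 460 of 18177 protein-coding genes. The list was chosen with earlier results of these data known, and no share over genes of like length was computed. No enrichment of such genes can thus be read from these counts. Among ion channel genes 2 of 163 starts lay in skewed windows. The nicotinic receptor gene Chrna4 on chromosome 2 had 4332 on 129 and 913 on Cas, and Kcnj3 had 3943 on 129 and 578 on Cas.

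Solute carrier genes had 7 of 269 starts in skewed windows (2.60%). Besides Slc39a12 they included the fucose transporter gene Slc35c1 with 3459 interactions on 129, against 429 on Cas. Slc28a3, a nucleoside transporter gene, had 3427 on 129 and 396 on Cas, and Slc44a1, a choline transporter gene, had 2304 on 129 and 588 on Cas. Numbered zinc finger genes had 6 of 267 (2.25%), among them Zfp277, in 1 window with Dock4, at 2678 on 129 and 227 on Cas, and Zfp667 at 2335 on 129 and 328 on Cas. Among semaphorins and guidance receptors, 1 of 51 did, Plxnc1 on chromosome 10, with 1122 on 129 and 408 on Cas.

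Since the ES cells grew on feeders, fibroblast markers were looked at as well. By their starts 1 of 20 lay in a skewed window, Tcf21, and by gene bodies 2 of 36, Tcf21 and Fn1. The median log2 ratio of the 20 was -0.11, with a range of -1.50 to 1.18. The part of feeder DNA in the skew of these windows was not tested, and the feeders' strain was not given in the sources used here. At Fn1 the distance in the window from 71650001 was 210.5 kb on 129, against 3474.5 kb on Cas.

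Chromosome 10 held more of the skewed windows than any other. It had 97 of the 702 (13.8%) on 5.69% of the counted windows, so that 4.12% of its windows were skewed (3.35 to 5.00%). On the other 18 chromosomes this share ran from 0.953% on chromosome 14 to 2.35% on chromosome 17. The median window of chromosome 10 lay at 0.23 on the log2 scale. When every chromosome was centred on its own median, 50 windows of chromosome 10 passed (2.12%), and shares on the other chromosomes were 1.29 to 2.15%.

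**Figure D5:**
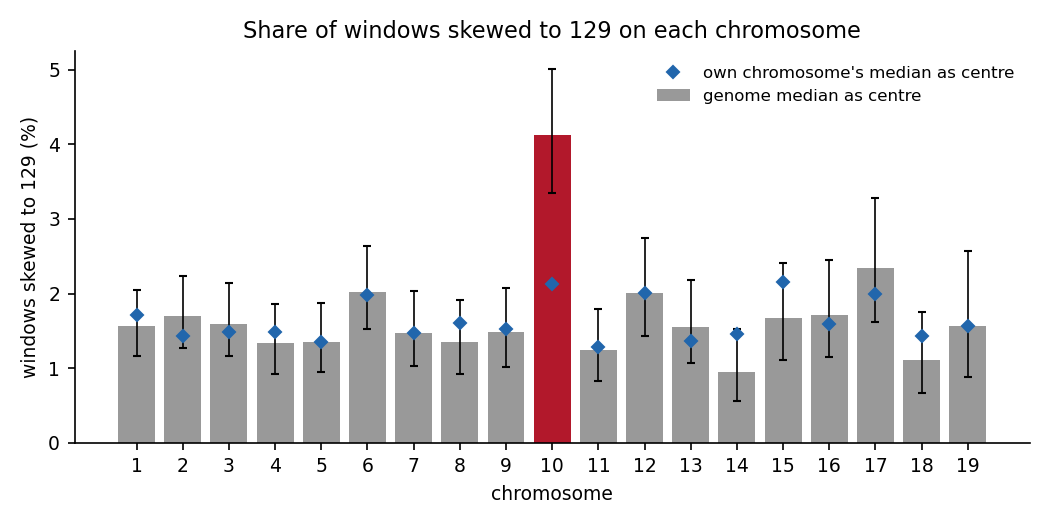
Percentage of counted windows skewed to 129 on each chromosome, with exact 95% intervals as error bars and chromosome 10 in red. Diamonds give the percentage when each chromosome is centred on its own median; chromosome 10 is at 4.12% with the genome median and at 2.12% with its own.

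The skewed windows of chromosome 10 also differed from those elsewhere in count, gene content and surroundings. Their median summed count was 387, against 1254 on the other chromosomes. No protein-coding gene lay in 66 of these 97 (68.0%), against 47.6% of the skewed windows elsewhere and 40.8% of all windows of chromosome 10. The median ratio of their surroundings was 0.36 on the log2 scale, against 0.08, and 40 of 97 were at least 2 times their surroundings, against 477 of the 604 elsewhere with a value for their surroundings. Adjoining skewed windows made up 23 of the 97, against 49 of the 605. As the median window of chromosome 10 lay at 0.23, a smaller rise above it was enough to pass the threshold. The part of this shift in these differences was not tested. In bins of 5 Mb, the most skewed windows lay on chromosome 10 from 45000001 to 50000000, with 15 of 68. Next came its bins from 30000001 and from 50000001 and a bin of chromosome 15 from 45000001 to 50000000, with 11 each. Of all such bins 168 held none, and 42 held 4 or more, of which 8 were on chromosome 10.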

How the data were processed

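Promoter Capture Hi-C was done by the submitters on 2 samples of F121-6 ES cells, per the labels' protocols, after fixation in 2% formaldehyde, HindIII digestion and capture with baits for 22225 promoters. The submitters' processing notes name Bowtie2 and mm10. Allele assignment, read filters and merging were not given in the sources used here. As deposited, counts are whole-number interactions per allele in windows of 50 kb, not normalized. The deposited distances are whole multiples of 500, taken to be bp, and are of unit other, with no statement of how the authors summarised them. The labels of replicates 1 and 2 name the same columns, and each was taken as a pooled value. No label ties the replicates to separate cultures.

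From these, the ratio (129 + 1)/(Cas + 1) was computed for each window, with its log2 relative to the genome median, and exact Clopper-Pearson 95% intervals. Counts limit the precision as given with the results. An interaction may be counted at both ends, so intervals of the 129 share cover counting error only. Windows were chosen by this contrast, and each allele has 1 value, so no test was run. Distances needed 10 or more interactions on each allele, and surroundings 5 or more counted windows within 1 Mb. Table starts were raised by 1. Genes came from RefSeq on GRCm38.p6, and 16457 of 20665 protein-coding genes had a promoter entry giving their start. No genome sequence was used, so window sequence features were not analysed here.

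The members and gene lists were chosen with earlier results of these data known. Named were the 12 largest ratios at 1000 or more interactions, the 10 highest counts, the 5 longest runs, the 4 windows on either side of the threshold, the 6 largest and 4 smallest ratios of Cas to 129 distance at 100 or more interactions per allele, and up to 4 genes per list. Genes with several skewed windows, bins of 5 Mb, microRNAs and the comparison of windows with a start to those without were chosen after the values were seen. Genes with model or clone names were counted, not named. Some windows chosen by these rules are not reported here. The code for the rules was tried on simulated counts, with a 4-fold shift put into windows of 1000 or more interactions and counting error only. That trial does not cover windows of lower count or smaller skew. Alternatives were other count minimums, pseudocounts, folds and centres, the interval's lower end, and leaving out chromosome 10. Tables were made with pandas 2.3.3 and numpy 2.4.6 under Python 3.11.15, intervals with scipy 1.17.1, and plots with matplotlib 3.10.9.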

Additional observations from a re-analysis of the deposited data

How the results depend on the processing

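No paired analysis was possible because each allele has 1 pooled value and both replicates share their columns, and for the same reason no replicate could be left out. The 702 windows became 707 with a pseudocount of 0.5, 654 with 5, 671 with each chromosome's own median as centre (632 of them shared), 727 with the ratio of summed counts as centre and 884 at a summed count of 100 or more. They were 419 at 500 or more, 338 at 1000 or more, 2745 at 1.5-fold, 100 at 4-fold and 381 when the lower end of the interval had to pass. Without chromosome 10, a choice made after seeing the data, 635 passed against the median of the rest.

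The share that holds a gene start, 32.6% of the 657 windows whose starts are known, was 27.4% at a count of 100 or more, 52.9% at 500, 62.0% at 1000, 19.4% at 1.5-fold, 42.7% at 4-fold and 48.8% with the lower end. The share with the longer distance on Cas, 66.1%, was 61.5%, 78.8%, 81.1%, 57.2%, 86.0% and 76.9% under the same settings. The share that adjoins another skewed window, 10.3%, was 6.21% at a count of 500, 1.78% at 1000, 26.6% at 1.5-fold, 0 of 100 windows at 4-fold, 5.25% with the lower end and 8.03% without chromosome 10. The share on chromosome 10, 13.8%, was 8.83% at 500, 6.21% at 1000, 8.0% at 4-fold, 9.71% with the lower end and 7.45% with each chromosome's own centre. The share still skewed against its surroundings, 73.8%, was 83.2% at 500, 93.2% at 1000, 68.8% at 1.5-fold, 88.9% at 4-fold, 96.6% with the lower end, 77.9% with each chromosome's own centre and 66.3% with surroundings of 250 kb. The cause of these moves was not tested. All other settings moved the shares by less than their exact intervals. Depth limits the windows with under 500 interactions most, since 65 of those 283 passed by the lower end of their interval.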
